A study of Caenorhabditis elegans with 8 samples.

Results

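The *dod* genes (downstream of DAF-16) of *Caenorhabditis elegans* are described here in worms exposed to atracurium. The members were the 9 genes of the deposited table whose symbol is *dod-3*, *dod-6*, *dod-17* or *dod-19* to *dod-24*, out of 17521 genes tested. The rule took them by name, with earlier results of these data known. Messenger RNA of whole worms was sequenced in 4 samples treated with 50 μM atracurium, a blocker of the neuromuscular acetylcholine receptor, and in 4 samples given the water vehicle. All 8 samples were N2 worms, the wild-type laboratory strain, exposed for 24 h as they passed to day 1 of adulthood. The paper's lifespan and healthspan plates held 5-fluorouracil, a compound that disrupts progeny, to keep eggs from hatching. Its sequencing methods do not name that compound for these 8 samples. Each sample pooled about 1000 worms, and the paper's methods state that 4 samples were grown. The labels do not say whether samples of a group came from separately grown cultures. The p-values therefore set the difference between the groups against the spread between these samples. The comparison asked whether genes known to follow the activity of DAF-16 differed in worms treated with atracurium.

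DAF-16 is the worm FOXO transcription factor. When insulin/IGF-like ligands activate the receptor DAF-2, a kinase cascade through PI3-kinase and AKT phosphorylates DAF-16 and keeps it in the cytoplasm, and when that signal is low DAF-16 enters the nucleus and changes transcription. The *dod* genes were named in expression profiles of animals with reduced *daf-2* activity: those of class 1 are raised and those of class 2 are lowered when DAF-16 is active. By this numbering *dod-3* and *dod-6* belong to class 1, and *dod-17* and *dod-19* to *dod-24* belong to class 2. Several class 2 members, *dod-17*, *dod-21*, *dod-22* and *dod-24* among them, encode proteins with a CUB-like domain, and genes of this kind are known for their expression in the intestine and their response to bacterial infection.

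Of the 9 members, 1 passed the threshold for a difference between the groups. At an adjusted p below 0.05 (limma-trend with Benjamini-Hochberg adjustment over 17521 genes), *dod-24* was the 1 member that fell and no member rose, where 0.177% of all genes passed in either direction and 0.0342% passed as lower. At an unadjusted p below 0.01, 3 members were lower (*dod-24*, *dod-22* and *dod-17*) and 0 were higher, beside 3.07% of all genes in either direction and 1.87% lower. These 3 were also the members whose 4 atracurium samples all lay below the 4 water vehicle samples, which held for 3.75% of all genes. *dod-23* was the fourth member at an unadjusted p below 0.05, a threshold that 6.63% of all genes passed as lower. The log2 fold change was below 0 in 8 of the 9 members, with a median of −0.53, against −0.01 over all genes. Class 2 had 6 of its 7 members below 0 and a median of −0.62, and the 2 class 1 members had a median of −0.27, which was 0.05 without atracurium replicate 2, 0.06 with the length trend removed, −0.43 without water vehicle replicate 1 and −0.16 without water vehicle replicate 3. Whether the 2 classes differed was not tested. The class 2 median was −0.27 without atracurium replicate 1 and −0.43 without water vehicle replicate 1, where *dod-21* became its middle member.

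**Figure D1:**
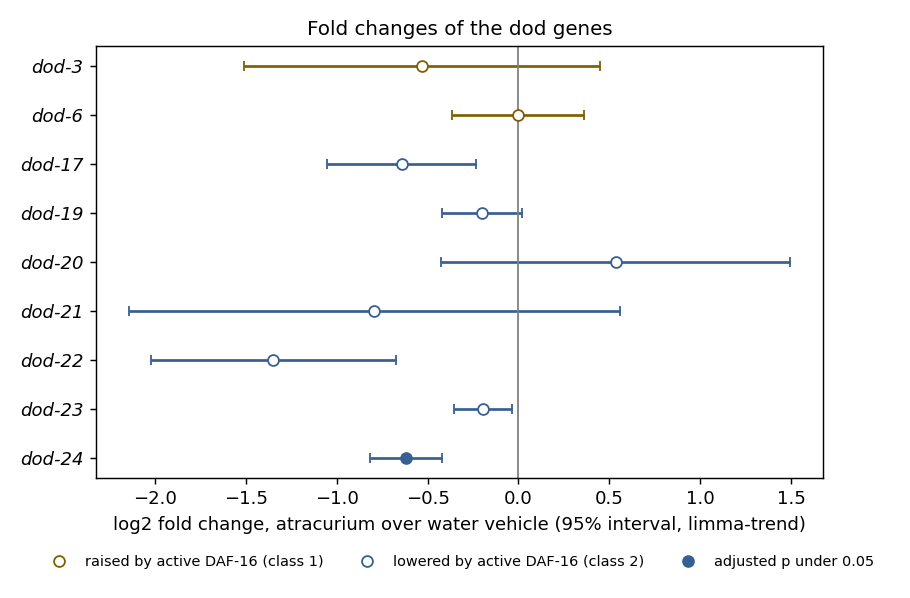
Log2 fold change of each *dod* gene, atracurium over water vehicle, with its 95% interval from limma-trend; colours mark genes raised (class 1) or lowered (class 2) by active DAF-16, and a filled point marks an adjusted p under 0.05. The intervals of *dod-17*, *dod-22*, *dod-23* and *dod-24* lie wholly below 0, and *dod-24*, at −0.62, is the filled point.

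*dod-24* (WBGene00007875) lies on the minus strand of chromosome IV at 12940106 to 12941354 in WBcel235 and has 1157 nt of exon. Its values were 4.31, 4.55, 4.32 and 4.41 log2 CPM (log2 of the gene's read count scaled to a common library size) in the atracurium samples, against 5.15, 5.04, 5.08 and 4.79 in the water vehicle samples. The groups did not overlap, and the lowest water vehicle sample, replicate 4, was still above the highest atracurium sample, replicate 2. The gene averaged 4.40 ± 0.11 log2 CPM with atracurium and 5.02 ± 0.15 with the water vehicle (SD, n = 4 each). It fell by 0.62 on the log2 scale, to 0.652 of the water vehicle level (standard error 0.09, 95% interval −0.81 to −0.42, adjusted p = 0.0129 by limma-trend), and was 22nd of all genes by p-value. These values rest on 694, 788, 622 and 684 reads with atracurium, against 1199, 2028, 941 and 804 reads with the water vehicle. The direction held in all 20 alternative analyses, with a log2 fold change between −0.72 and −0.55, and the unadjusted p stayed below 0.01 in all 20. These 20 include 1 fit chosen after the data had been seen, without atracurium replicates 2 and 4. The adjusted p passed 0.05 in 13 of them, this fit included, ranging up to 0.140. Leaving out 1 library raised it to 0.0790 without atracurium replicate 1, 0.0714 without atracurium replicate 3, 0.0749 without water vehicle replicate 1, 0.0717 without water vehicle replicate 2 and 0.0828 without water vehicle replicate 3.

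*dod-22* (WBGene00010125) lies on the plus strand of chromosome IV at 12965374 to 12967392. Its values were −0.81, −1.18, 0.03 and 0.02 log2 CPM with atracurium, against 1.21, 0.82, 0.91 and 0.52 with the water vehicle. No atracurium sample reached the lowest water vehicle sample, and atracurium replicates 1 and 2 were the lowest of the 8. Few reads lay behind these values, with 18, 13, 30 and 31 reads in the atracurium samples and 76, 105, 51 and 40 in the water vehicle samples. At −1.35, its log2 fold change was the largest in size among the members, with a standard error of 0.31 and a 95% interval of −2.02 to −0.67. The unadjusted p lay below 0.01, but the adjusted threshold was not passed (adjusted p = 0.181 by limma-trend). The ratio of summed reads, scaled to library size, was 0.390 (95% interval 0.304 to 0.496, counting error only). Over 20 alternatives the log2 fold change was −1.52 to −1.12, the unadjusted p stayed below 0.01 in 20, and the adjusted p was between 0.0287, with samples weighted by their variability, and 0.514.

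*dod-17* (WBGene00010745), on the plus strand of chromosome IV at 12976303 to 12978343, had 1.04, 0.90, 1.28 and 1.68 log2 CPM with atracurium, against 2.04, 1.86, 1.76 and 1.82 with the water vehicle. The groups did not overlap, but atracurium replicate 4 came close to the lowest water vehicle sample, replicate 3. A log2 fold change of −0.64 was estimated, with a standard error of 0.19 and a 95% interval of −1.06 to −0.23 (adjusted p = 0.290 by limma-trend). The gene had between 61 and 102 reads in an atracurium sample and between 93 and 220 in a water vehicle sample. Over 20 alternatives the log2 fold change was −0.80 to −0.53, with an unadjusted p below 0.05 in 20 and below 0.01 in 14, and an adjusted p between 0.0718 and 0.571.

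*dod-21* (WBGene00007873), on the plus strand of chromosome IV at 12936738 to 12937988, had very few reads. Its values were −3.56, −0.996, −1.18 and −2.25 log2 CPM with atracurium, against −0.13, −0.61, −2.33 and −1.75 with the water vehicle, from 1, 15, 12 and 5 reads and from 29, 37, 4 and 7 reads. The groups overlapped, since water vehicle replicates 3 and 4 lay among the atracurium samples. It had a log2 fold change of −0.79 with a 95% interval from −2.14 to 0.56 (adjusted p = 0.618 by limma-trend). Without atracurium replicate 1, which held a single read, the log2 fold change was −0.27. The ratio of summed reads was 0.494 (95% interval 0.318 to 0.752, counting error only), while samples of the same group ranged from 4 to 37 reads with the water vehicle. The difference between the groups did not exceed the spread between samples.

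**Figure D2:**
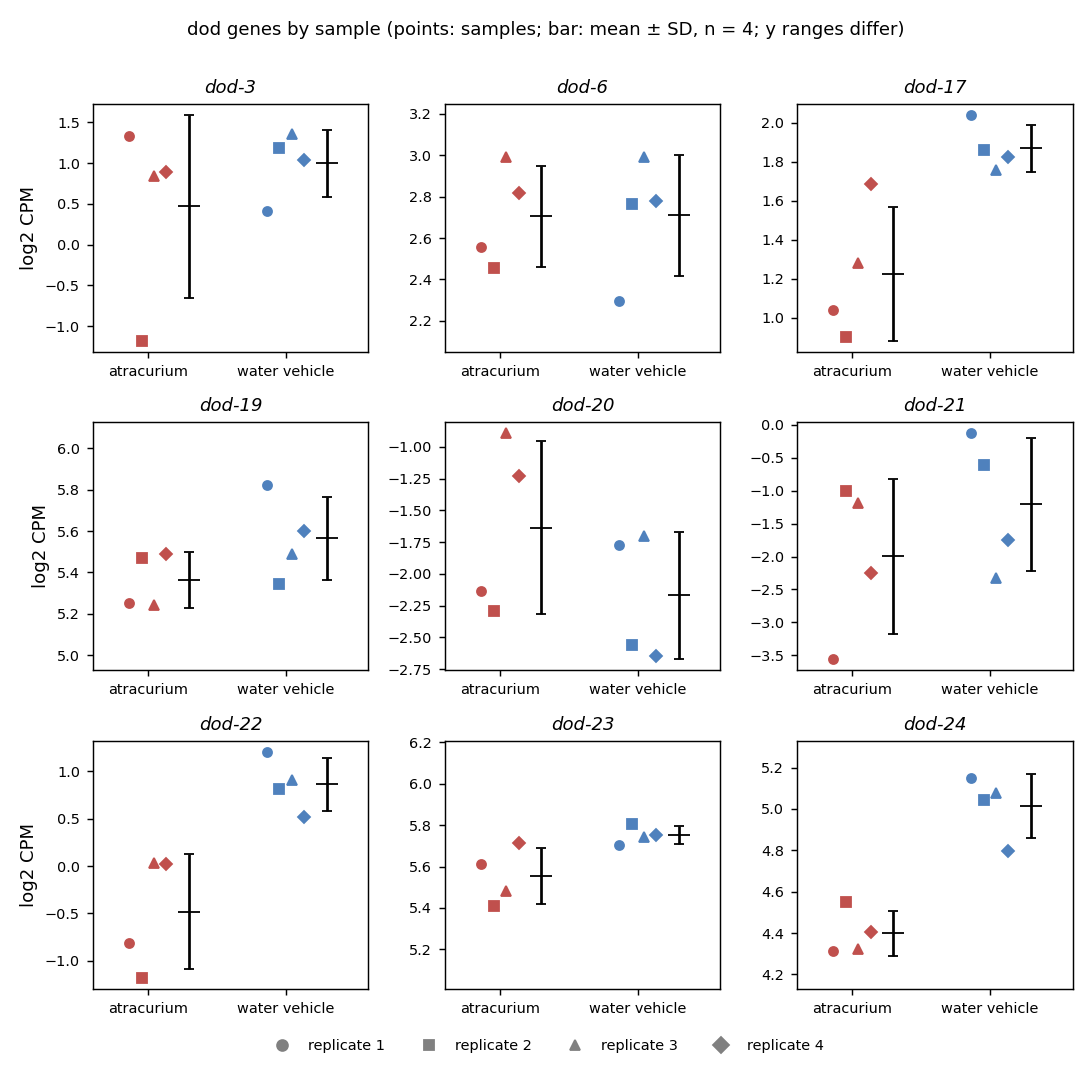
Log2 CPM of the 9 *dod* genes in each sample (y axes differ between panels), with atracurium samples left of water vehicle samples, symbols for replicates 1 to 4, and bars for the mean ± SD of 4 samples. The groups do not overlap for *dod-17*, *dod-22* and *dod-24*, and atracurium replicate 2 stands below the other samples for *dod-3*, at −1.18.

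The 3 remaining class 2 members lie elsewhere in the genome. *dod-19* (WBGene00022644, minus strand of chromosome V, 411782 to 414759) had 5.25, 5.47, 5.24 and 5.49 log2 CPM with atracurium, against 5.82, 5.34, 5.49 and 5.60 with the water vehicle. Water vehicle replicate 2 lay below both atracurium replicates 2 and 4, so the groups overlapped. For *dod-19* the log2 fold change was −0.20 with a standard error of 0.10 and a 95% interval of −0.42 to 0.02 (adjusted p = 0.458 by limma-trend). *dod-20* (WBGene00015259, plus strand of chromosome V, 422433 to 424177) was the only member with a log2 fold change above 0. Its values were −2.14, −2.29, −0.89 and −1.23 log2 CPM with atracurium, against −1.77, −2.56, −1.71 and −2.65 with the water vehicle, from 5 to 15 reads and from 3 to 8 reads. Atracurium replicates 3 and 4 were the highest of the 8 samples, while replicates 1 and 2 lay among the water vehicle samples. Its estimate of 0.53 on the log2 scale (standard error 0.44, adjusted p = 0.636 by limma-trend) had a 95% interval of −0.43 to 1.49, and it stayed above 0 in the 19 alternatives that kept the gene.

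*dod-23* (WBGene00009898, minus strand of chromosome II, 8398161 to 8399164) had 5.61, 5.41, 5.48 and 5.72 log2 CPM with atracurium, against 5.71, 5.81, 5.74 and 5.75 with the water vehicle. The groups touched at 1 point, where atracurium replicate 4 was just above water vehicle replicate 1. The water vehicle samples were close together (SD 0.04, n = 4), and the log2 fold change was −0.20 with a standard error of 0.07 and a 95% interval of −0.36 to −0.04 (adjusted p = 0.356 by limma-trend). Removing the trend of fold change with gene length gave −0.06. *dod-23* has 741 nt of exon, against a median of 1277 nt over all genes, and over all genes longer exons went with higher log2 fold changes (Spearman correlation 0.423, across genes, which are not independent replicates). The same step moved *dod-6*, with 581 nt of exon, from −0.0040 to 0.25. Whether exon length has a part in the value of any member was not tested.

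Neither class 1 member, of the kind raised by active DAF-16, passed a threshold. *dod-3* (WBGene00016052, minus strand of chromosome V, 2730622 to 2731098, 420 nt of exon) had 1.33, −1.18, 0.84 and 0.89 log2 CPM with atracurium, against 0.41, 1.19, 1.36 and 1.04 with the water vehicle. Atracurium replicate 2 alone was below 0, at 13 reads, and the other atracurium samples lay within the water vehicle range. Its log2 fold change of −0.53 (standard error 0.45, 95% interval −1.51 to 0.45, adjusted p = 0.645 by limma-trend) became 0.02 without that library. *dod-6* (WBGene00011869, plus strand of chromosome III, 10197716 to 10198352) had 2.56, 2.46, 2.99 and 2.82 log2 CPM with atracurium, against 2.30, 2.77, 2.99 and 2.78 with the water vehicle. Its groups covered nearly the same range. For *dod-6* the log2 fold change was −0.0040 with a 95% interval of −0.37 to 0.36 (adjusted p = 0.997 by limma-trend), and its sign turned in 9 of 20 alternatives, where it reached at most 0.25.

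The 4 members *dod-21*, *dod-24*, *dod-22* and *dod-17* lie within 41.6 kb of chromosome IV. The table holds 15 other genes between them and up to 5 genes to either side, of which 11 had a log2 fold change below 0. At an unadjusted p below 0.05, 4 of these 15 were lower and 1 was higher (beside 6.63% of all genes lower and 4.91% higher). Of the 15, 0 passed the adjusted threshold by limma-trend, and 1 was lower at an unadjusted p below 0.01 (beside 1.87% of all genes). These genes were named after their values were seen. C32H11.4, the 1 below 0.01, had 1.73, 1.73, 2.002 and 1.37 log2 CPM with atracurium, against 3.07, 2.53, 3.17 and 2.30 with the water vehicle. The groups of C32H11.4 did not overlap, and its fold change was −1.06 on the log2 scale (standard error 0.21, adjusted p = 0.0912). F55G11.2 and F55G11.8, the nearest tested genes on each side of *dod-22*, had log2 fold changes of −0.53 and −0.46 (adjusted p = 0.364 and 0.430), and the other lower gene was C32H11.5, with −1.49 (adjusted p = 0.324). The higher gene was K10D11.6, with 0.38 (adjusted p = 0.345). The other immediate neighbour of *dod-24*, next to *dod-21*, was F55G11.1, with −0.45 and a standard error of 0.42.

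**Figure D3:**
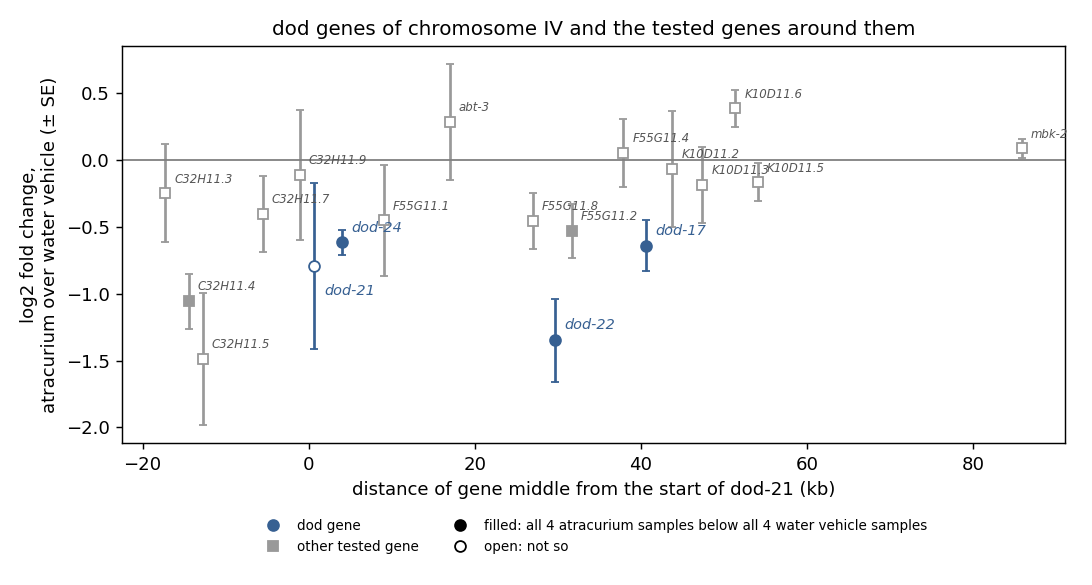
Log2 fold change (± standard error) of the 4 *dod* genes of chromosome IV and the 15 other tested genes around them, against the distance in kb from the start of *dod-21*. Filled symbols, all 4 atracurium samples below all 4 water vehicle samples, mark *dod-24*, *dod-22*, *dod-17*, C32H11.4 and F55G11.2.

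*dod-19* and *dod-20* lie within 12.4 kb of chromosome V, and 2 tested genes lie between them. ZK6.11, now named *irg-8*, had a log2 fold change of −0.15, and Y39D8A.1 had −0.06. Over the 57 tested genes within 5 places of any member the median log2 fold change was −0.06, with 1 gene past the adjusted threshold, as higher, beside 0.143% of all genes. That gene was R05D8.9, near *dod-3*, named after its values were seen, with 26, 37, 33 and 36 reads with atracurium, against 0, 0, 7 and 1 with the water vehicle (adjusted p = 0.0151 by limma-trend). The call of R05D8.9 was kept in 11 of the 19 alternatives that held the gene, and with single libraries left out only without atracurium replicate 2 or water vehicle replicate 3 (adjusted p up to 0.0802).

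Per unit of length the members spanned a wide range of levels. In CPM per kb of exon, *dod-23* was the highest, at 63.6 ± 6.02 with atracurium and 72.7 ± 2.11 with the water vehicle (SD, n = 4 each). *dod-19* followed at 29.6 ± 2.75 with atracurium and 34.1 ± 4.85 with the water vehicle, and *dod-24* at 18.2 ± 1.42 with atracurium and 28.0 ± 2.89 with the water vehicle. The ranges of *dod-19* and *dod-24* were apart in the atracurium samples and overlapped in the water vehicle samples. Next came *dod-6*, at 11.3 ± 1.94 with atracurium and 11.3 ± 2.18 with the water vehicle. *dod-3*, at 3.79 with atracurium and 4.76 with the water vehicle, and *dod-17*, at 2.05 with atracurium and 3.16 with the water vehicle, overlapped in both groups. *dod-22* stood at 0.562 with atracurium and 1.43 with the water vehicle. *dod-21*, at 0.222 with atracurium and 0.404 with the water vehicle, and *dod-20*, at 0.221 with atracurium and 0.133 with the water vehicle, were the lowest and overlapped in both groups. The order of the 9 was the same in both groups, with *dod-22* and *dod-21* also overlapping in the atracurium samples. The summed CPM of the 9 members was 117.8, 118.8, 116.2 and 131.9 with atracurium, against 157.7, 144.3, 148.0 and 144.2 with the water vehicle, and most of that sum was *dod-23*, *dod-19* and *dod-24*.

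**Figure D4:**
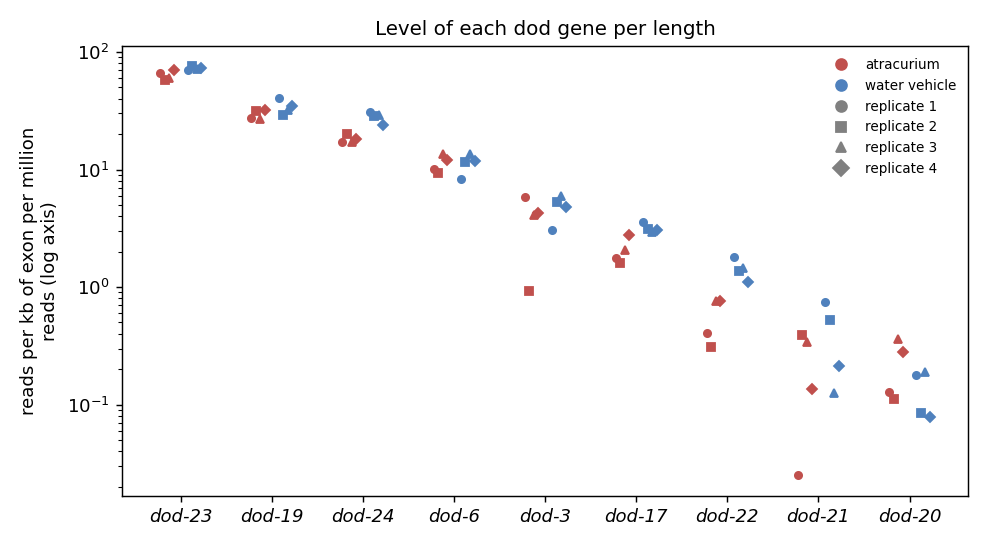
Level of each *dod* gene in each sample, in reads per kb of exon scaled to library size (CPM per kb) on a log axis, with atracurium samples left of water vehicle samples. The water vehicle means run from 72.7 for *dod-23* to 0.133 for *dod-20*.

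The members did not vary together as 1 group across the samples. The highest correlation between members over the 8 samples was that of *dod-17* and *dod-22* (Pearson r = 0.952), and it was 0.844 once the group means were removed, where *dod-20* and *dod-22* had the highest, at 0.909 (0.03 over the 8 samples). *dod-24* correlated with *dod-22* at 0.806 and with *dod-17* at 0.762 over the 8 samples, but at 0.03 and −0.03 within groups. These correlations are descriptions: the samples share library preparation, and the difference between the groups enters the values over 8 samples. Among 12295 genes of mean log2 CPM of 0 or more, the genes most like *dod-24* were *swt-3*, which encodes a SWEET sugar transporter (r = 0.998), F22G12.3 (0.972) and T13F2.9, listed as a pseudogene (0.972). *swt-3* fell by 0.78 and T13F2.9 by 0.76 on the log2 scale (adjusted p = 0.00332 and 0.0284 by limma-trend). Similar genes, here and below, were picked over the 8 samples with the difference between the groups included. Genes picked for likeness to a member that fell tend to fall too, so these p-values are not separate evidence.

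For *dod-17* and *dod-22* the most similar genes were largely major sperm protein genes, whose products move and signal from sperm. Those of *dod-17* were *msp-56* (r = 0.979), *msp-40* (0.976) and *msp-53* (0.970), and those of *dod-22* were *msp-36* (0.978), D1086.6 (0.976) and *msp-56* (0.972). The *msp* genes are near-identical copies, so reads may be shared between them and their single values are uncertain. The 30 sperm marker genes summed to 112, 75.0, 129 and 167 CPM with atracurium, against 213, 196, 196 and 173 with the water vehicle, so that the groups did not overlap and the atracurium samples stood in the same order as for *dod-17*. All 30 had a log2 fold change below 0, with a median of −0.77, and 0 passed the adjusted threshold by limma-trend. Of the 30, 17 were lower at an unadjusted p below 0.01, beside 1.87% of all genes. Below 0.05, 25 were lower, beside 6.63% of all genes. As most of the 30 are *msp* copies, their counts are not separate observations. In whole worms, fewer cells of a type and less RNA per cell cannot be told apart. The part of sperm RNA in the *dod* values was not tested, nor was that of exon length in the sperm marker values. For the other 6 members the 3 most similar genes had correlations of 0.914 to 0.982, led by F44E5.2 for *dod-3*, *eya-1* for *dod-6*, C28G1.6 for *dod-19*, W02D9.10 for *dod-20*, *fbxa-31* for *dod-21* and F36G3.2 for *dod-23*.

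The other marker lists were mixed. The 12 intestine markers, of the tissue known for *dod-17*, *dod-22* and *dod-24*, summed to 1836 to 2113 CPM with atracurium and 1628 to 2006 CPM with the water vehicle, with 11 of 12 above 0, a median log2 fold change of 0.08 and 0 past an unadjusted p of 0.01. When values were taken relative to these markers, the median over all genes was −0.12, *dod-24* had −0.72 (adjusted p = 0.0223 by limma-trend), and 5 members were lower at an unadjusted p below 0.01, where 3.37% of all genes were lower (591 genes, against 45 higher). The pharynx markers summed to 132 to 146 CPM with atracurium and 106 to 112 CPM with the water vehicle, so that the groups did not overlap. Of these 6 markers, 2 rose at the adjusted threshold, beside 0.143% of all genes. Body wall muscle (8 markers, median 0.17), neurons (9, 0.09), oocyte and eggshell (12, 0.10) and hypodermis and cuticle (8, −0.28) had 0 genes past the adjusted threshold. At an unadjusted p below 0.01, 2 muscle markers were higher, beside 1.2% of all genes. Below 0.05, 5 muscle markers were higher and 1 was lower, and 3 hypodermis and cuticle markers were lower. At the same threshold 2 intestine, 3 pharynx, 1 neuron and 1 oocyte and eggshell markers were higher, and 0 of these lists were lower. Over all genes 4.91% were higher and 6.63% lower at that threshold. The part of these tissues in the *dod* values was not tested, nor was that of exon length in the marker values. No marker was at 0 reads in any sample. The intestine marker *mtl-2* is also among the genes listed below as raised by DAF-16.

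Infection response genes (*irg*), several of which are known to be regulated together with class 2 *dod* genes, were mixed. Of 7 tested, *irg-5* fell, with 1.21, 1.48, 0.92 and 0.74 log2 CPM with atracurium, against 2.11, 2.19, 2.36 and 2.27 with the water vehicle. Its groups did not overlap, and at −1.15 (standard error 0.18) its log2 fold change passed the threshold (adjusted p = 0.0234 by limma-trend). Over all genes, 0.0342% passed as lower. *irg-4*, named after its values were seen, had −0.90 (standard error 0.24, adjusted p = 0.254), also without overlap. The other 5 had log2 fold changes between −0.15 and 0.11, and the median of the 7 was −0.08. The call of *irg-5* held without atracurium replicate 2 and was lost without any other single library. *cld-9* was the 1 gene besides the members with CUB in its description in the table, and it had a log2 fold change of −0.49 (adjusted p = 0.316 by limma-trend) and no overlap of the groups. Its unadjusted p lay below 0.01, but not in 10 of 20 alternatives, among them 6 of the 8 in which 1 library was left out, all except atracurium replicate 2 and water vehicle replicate 2. C32H11.9, beside *dod-21* and now named *cld-1*, was not in the list and had −0.11 (adjusted p = 0.943). The CUB-like list was picked by that word alone, so it may leave out genes with a CUB-like domain.

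*daf-16* itself averaged 6.91 ± 0.16 log2 CPM with atracurium and 6.81 ± 0.07 with the water vehicle (SD, n = 4 each), a log2 fold change of 0.10 with a 95% interval of −0.07 to 0.27 (adjusted p = 0.613 by limma-trend). Its RNA level does not measure the place or activity of the protein. Of 25 other genes listed as raised by DAF-16, 24 were tested. This list and that of genes lowered by DAF-16 were chosen with earlier results of these data known. The paper had already reported *sodh-1*, *ctl-1* and cytochrome P450 genes as raised in these samples, so the counts are not separate evidence. At the adjusted threshold 0 fell (0.0342% of all genes) and 3 rose (0.143% of all genes). They were the cytochrome P450 gene *cyp-35B1* (log2 fold change 4.69, standard error 0.18, adjusted p = 1.08e-08), the alcohol dehydrogenase gene *sodh-1* (1.07, standard error 0.06, adjusted p = 4.24e-07) and the glyoxylate cycle gene *icl-1* (0.36, standard error 0.06, adjusted p = 0.0396). The calls of *cyp-35B1* and *sodh-1* held in all 20 alternatives and that of *icl-1* in 7, and with single libraries left out *icl-1* passed only without atracurium replicate 2, with an adjusted p of up to 0.157 in the others. At an unadjusted p below 0.01, 5 of the 24 were higher (beside 1.2% of all genes) and 1 was lower (beside 1.87%). This added *lea-1* (0.25) and *hsp-16.2* (1.21) as higher and the ferritin gene *ftn-1* (−0.94) as lower, all named after their values were seen. The other listed *hsp-16* genes, also named after their values were seen, were mixed and had overlapping groups. They were *hsp-16.41* (0.62), *hsp-16.48* (0.04), *hsp-16.11* (−1.41) and *hsp-16.49* (−1.41). The groups did not overlap for 8 of the 24, all higher, where 3.41% of all genes were so. The median of the 24 was 0.18, with 18 of them above 0.

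Of 6 other genes listed as lowered by active DAF-16, 0 passed the adjusted threshold by limma-trend or by limma-voom on the recovered reads. At an unadjusted p below 0.05, 1 was lower (beside 6.63% of all genes). This was the insulin-like peptide gene *ins-7*, at −0.95 on the log2 scale (standard error 0.39, adjusted p = 0.390). The vitellogenin genes *vit-2* and *vit-5*, which encode yolk proteins, had 0.16 and 0.18. *dod-18*, on chromosome I and the only further gene listed under a *dod* symbol, had −0.05 (standard error 0.10, adjusted p = 0.860). Any listed gene that holds a *dod* name only as a synonym stands under its other symbol and was not set apart. The median of the 6 was 0.06, against −0.62 for the 7 class 2 members.

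The libraries held 27922986 to 60015200 reads on the tested genes, and 31 genes passed the adjusted threshold, 25 higher and 6 lower. A count of 0 allowed up to 0.0487 to 0.107 CPM depending on the sample, a limit that covers counting error only, and no member was at 0 in any sample. In atracurium replicates 2 and 4, 615 and 603 genes had 0 reads, against 75 to 308 in the other samples. Their weights by variability were 0.34 and 0.51, against 1.03 to 2.27 in the others. The part of this in the *dod* values was not tested. These 2 samples, both of the atracurium group, stood apart from the other 6 samples on the first 2 principal components. Without both of them, an alternative chosen after the data had been seen, *dod-24* had a log2 fold change of −0.70 (adjusted p = 0.0014 by limma-trend), *dod-22* −1.25 (adjusted p = 0.0632) and *dod-17* −0.71 (adjusted p = 0.0835). In the same fit *dod-3* had 0.09 and 5 members were lower at an unadjusted p below 0.01, where 2.73% of all genes were lower.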

How the data were processed

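RNA from 4 atracurium and 4 water vehicle samples was sequenced by the authors after selection of polyadenylated RNA. Per the labels and the paper's methods, the authors trimmed reads with Trimmomatic 0.32, aligned them to WBcel235 (Ensembl release 91) with HISAT2 2.1.0, counted them per gene with HTSeq 0.11.0, and removed genes that did not exceed 2 counts in 3 or more samples. Values were deposited as log2 CPM, made by the authors with edgeR 3.26.8 from TMM-scaled library sizes plus a prior count, which averaged 2 reads. The prior count shrinks fold changes of genes with few reads, and counts are not corrected for length. Whole reads were recovered from the log2 CPM, with 100% of values within 0.1 of a whole number, and gave the depth of each sample.

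Groups came from the labelled treatment. All 17521 genes were tested with limma 3.58.1 in R 4.3.3 (limma-trend, 2 groups, two-sided, Benjamini-Hochberg adjustment), with thresholds of 0.05 for the adjusted and 0.01 for the unadjusted p. Ratios of reads have 95% exact binomial intervals, which cover counting error only. The positions and exonic lengths were taken from WBcel235 as annotated in Ensembl release 115.

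The members and all gene lists were chosen with earlier results of these data known. Named are the 9 members, *daf-16*, other *dod* genes, the genes of the DAF-16, CUB-like and *irg* lists past the adjusted threshold or else the 3 of smallest p, the nearest neighbours of members that passed, and the 3 genes most correlated with a member. Exceptions are marked in the text. Alternatives were sample weights, robust moderation, limma without the trend, limma-voom on the recovered reads, a prior count of 0.5, quantile normalization, a common median, a filter keeping genes over a log2 CPM of 0 in 4 samples or more, a replicate block, removal of a length trend (lowess, span 0.3), values relative to intestine markers, and each sample left out. No further filter was applied in the reported analysis.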

Additional observations from a re-analysis of the deposited data

How the results depend on the processing

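Among the members, *dod-17*, *dod-19*, *dod-20*, *dod-21*, *dod-22*, *dod-23* and *dod-24* kept their direction in every alternative run, of which the stricter filter removed *dod-20* and *dod-21*. Between 1 and 37 reads a sample lay behind these 2 genes. The causes of the changes below were not tested.

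The number of members past the adjusted threshold (1) was 0 without the mean-variance trend (*dod-24* −0.62, adjusted p = 0.140) and 2 with sample weights (*dod-22* −1.35, adjusted p = 0.0287). At an unadjusted p below 0.01 it (3) was 5 relative to intestine markers and 5 without atracurium replicates 2 and 4. Replicate numbers did not pair the samples (correlations of same-numbered samples −0.13 to 0.106). With the replicate number as a block the members past the adjusted threshold were 0 (*dod-24* −0.62, adjusted p = 0.0598), *irg* genes 0, neighbours 2, all genes 20, and CUB-like genes below 0.01 were 0.

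*dod-6* had 0.0594 with a common median, 0.0478 with quantile normalization, 0.25 with the length trend removed and 0.0649 without atracurium replicates 2 and 4, where *dod-3* had 0.0863. The CUB-like gene missed 0.01 with voom, a common median and quantile normalization (0 each). The *irg* call was 0 without the trend and with quantile normalization. Neighbours past the adjusted threshold (1) were 0 without the trend, with a prior count of 0.5 and with the stricter filter, 2 with robust moderation and with the length trend removed, and 3 with sample weights. Neighbours below 0.01 (3) were 5 with robust moderation and quantile normalization, 6 with a common median and relative to intestine markers, 7 without atracurium replicates 2 and 4, and 11 with sample weights. All genes past the adjusted threshold (31) were 16 without the trend, 139 with sample weights and 134 without atracurium replicates 2 and 4, and those below 0.01 (538) were 1098 and 977 in the last 2. The 538 genes were 210 higher and 328 lower, against 299 higher and 272 lower with a common median and 45 higher and 591 lower relative to intestine markers.

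With single samples left out, the adjusted and unadjusted counts were 0 to 1 and 2 to 4 for members, 2 to 3 and 4 to 7 for class 1 listed genes, 0 and 0 to 1 for class 2 listed genes, 0 and 0 to 1 for CUB-like genes, 0 to 1 and 1 to 2 for *irg* genes, 0 to 3 and 3 to 6 for neighbours, and 17 (without atracurium replicate 1) to 78 (without atracurium replicate 2) and 306 (without water vehicle replicate 3) to 883 (without atracurium replicate 4) for all genes. Medians were −0.43 to 0.05 for class 1 and −0.66 to −0.27 for class 2 members. Log2 fold changes were −0.82 to 0.0208 for *dod-3*, −0.14 to 0.0906 for *dod-6*, −0.80 to −0.53 for *dod-17*, −0.27 to −0.11 for *dod-19*, 0.29 to 0.75 for *dod-20*, −1.17 to −0.27 for *dod-21*, −1.52 to −1.12 for *dod-22*, −0.25 to −0.15 for *dod-23* and −0.69 to −0.57 for *dod-24*.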
